A study of Drosophila melanogaster with 10 samples.

Results

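A set of 8 genes of the cellular defence against reactive oxygen species was described across 5 genotypes of Drosophila melanogaster eye-antenna discs: the superoxide dismutases Sod1 and Sod2, catalase (Cat), thioredoxin (Trx-2), the 2 subunits of glutamate-cysteine ligase (Gclc and Gclm), and the transcription factor gene cnc with its partner Keap1. Probe sets were taken by the exact gene symbol of the platform annotation. This gave 7 of the 18769 non-control probe sets of the array, for 6 genes. The gene entered as Trx-2 carries the symbol Trx2 in the annotation and was added through its gene identifier, so that 7 genes with 8 probe sets were followed. Sod1 matched no probe set by this rule and was not analysed here.

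Superoxide leaks from the mitochondrial respiratory chain and is turned into hydrogen peroxide by superoxide dismutases, Sod2 being the enzyme of the mitochondrial matrix. Catalase breaks hydrogen peroxide down to water and oxygen, and thioredoxin and glutathione supply the electrons for most other peroxide and disulphide reduction. In flies, which have no glutathione reductase, the thioredoxin system also keeps glutathione reduced. Glutamate-cysteine ligase catalyses the rate-limiting step of glutathione synthesis, with Gclc as its catalytic and Gclm as its modifier subunit. The long protein form of cnc, CncC, is the fly Nrf2: Keap1 holds it in the cytoplasm for degradation, and upon oxidative stress it enters the nucleus and activates detoxification and glutathione genes.

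Expression was measured on 10 Affymetrix arrays, 2 biological replicates of each genotype, in whole eye-antenna discs dissected at 96 h after egg laying and pooled by 20 to 30 per sample. All 5 genotypes carried ey-Gal4, which drives UAS transgenes from the eyeless enhancer in the disc, and no array lacked the driver. The control was ey-Gal4/UAS-GFP. The knockdown was ey-Gal4/UAS-COX7a-RNAi (v106661), a hairpin against COX7A, a subunit of cytochrome c oxidase, the last complex of the respiratory chain. The Delta genotype was ey-Gal4, UAS-Delta/UAS-GFP, which overexpresses the Notch ligand Delta, and the combined genotype paired ey-Gal4, UAS-Delta with that same hairpin in place of UAS-GFP. The fifth genotype was ey-Gal4/UAS-Notch[intra2], an activated intracellular Notch. These are called GFP, COX7a RNAi, Delta, Delta with COX7a RNAi, and Notch intra. By these genotypes, only GFP and Delta held the GFP transgene. Every difference of a COX7a RNAi genotype from GFP or Delta, and any average of them, also compares discs without that transgene to discs with it. Effects of the hairpin and of the missing transgene cannot be told apart there. Notch intra against GFP or Delta has the same limit. In whole discs, fewer cells that express a gene and less RNA of it per cell cannot be told apart.

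The targeted gene followed the labels. COX7A read 13.41 and 13.32 log2 units in GFP and 10.50 and 10.54 with COX7a RNAi. It fell by 2.85 ± 0.09 there. In the Delta background it fell by 2.21 ± 0.09, and it stood 0.52 ± 0.09 higher in Delta with COX7a RNAi than in COX7a RNAi alone (limma adjusted p = 0.0422), so the knockdown left more transcript in the combined genotype. Delta was 1.96 ± 0.15 higher in the Delta arrays than in GFP and 1.81 ± 0.15 higher in Delta with COX7a RNAi. Arrays of one genotype correlated at r = 0.995 to 0.997 and arrays of different genotypes at 0.981 to 0.995. All 7 eye-antenna markers that had a probe set, of 8 listed, were above the floor of 4.66 log2 units on 10 of 10 arrays. Of the markers of other tissues, some tracheal and glial genes and the corpora cardiaca gene Akh were called in comparisons with COX7a RNAi. Akh was not called for COX7a RNAi in the Delta background. Muscle markers had lower medians with COX7a RNAi, and none of them was called there. Some eye-antenna markers also differed between genotypes. The values of all these markers stand beside Gclc.

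Values are log2 expression values, ± is the standard error of the limma fit, and the call threshold was an adjusted p (Benjamini-Hochberg, over 8702 tested genes) under 0.05. Levels of different genes are not compared, since each probe set has its own response. All 7 genes lay above the floor on 10 of 10 arrays. Of the 7, 1 was called in COX7a RNAi against GFP (Gclc), where 4.53% of all tested genes were called. In Delta with COX7a RNAi against GFP 2 of 7 were called (Gclc and Sod2), against 7.56% of all genes. No member was called with Delta (2.38% of all genes) or Notch intra (13.1%) against GFP, with the knockdown in the Delta background (3.75%), with Delta in the COX7a RNAi background (0.896%) or between Notch intra and Delta (9.55%). At an unadjusted p under 0.05 limma gave 0, 1, 1, 0 and 0 of 7 members in those 5 comparisons, the 1 being Gclc both times, beside 14.5%, 28.4%, 17.2%, 12.8% and 24.6% of all tested genes. The median change of the 7 members was -0.02 in COX7a RNAi against GFP and 0.00 in Delta with COX7a RNAi against GFP, beside medians of 0.00 and 0.01 over all tested genes, and the calls rested on 2 of the 7 genes.

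**Figure D1:**
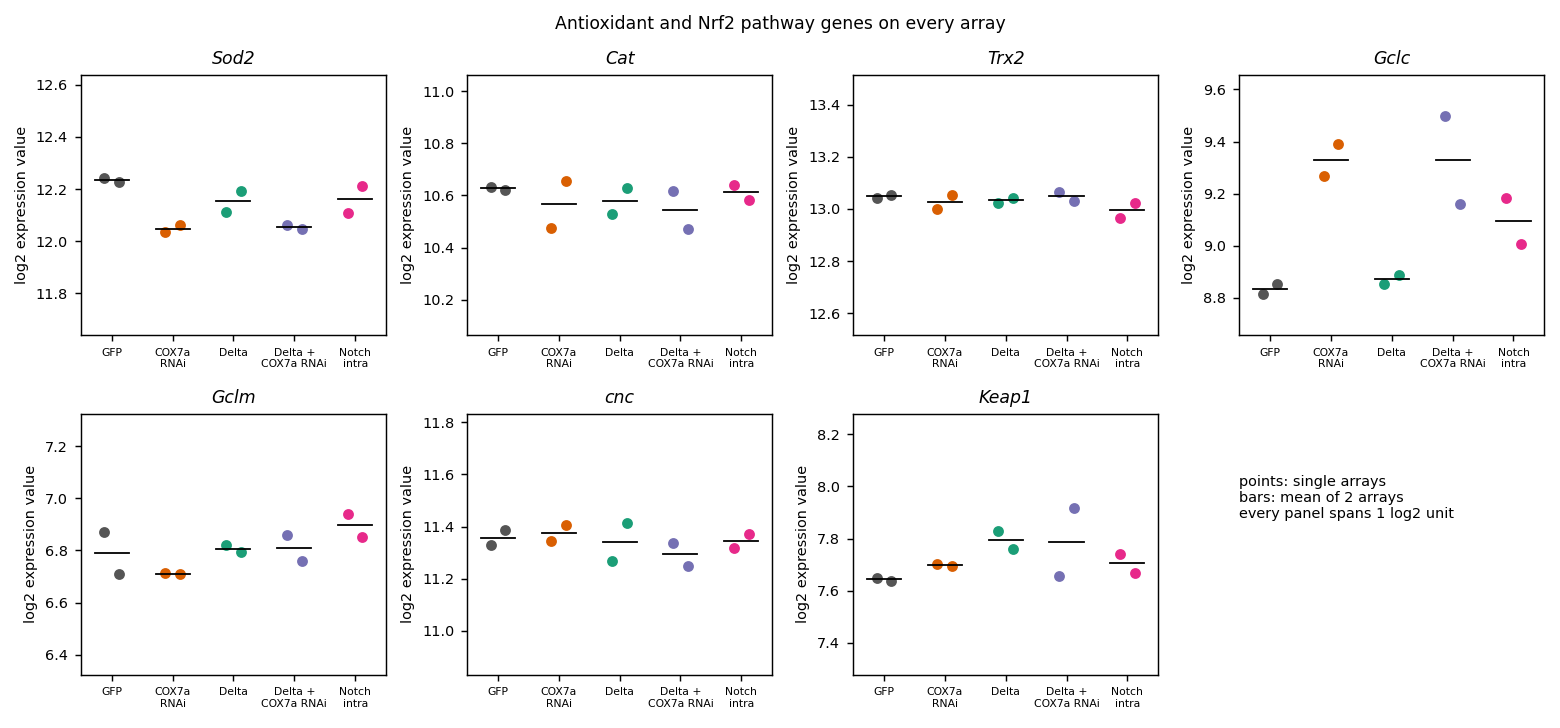
Log2 expression value (vertical axis, every panel spanning 1 log2 unit) of the 7 genes on each of the 10 arrays, by genotype; points are single arrays and bars the mean of 2 arrays. Gclc sits at 9.16 to 9.50 in the 4 arrays with COX7a RNAi and at 8.82 to 8.89 in the GFP and Delta arrays, while the points of Cat, Trx2 and cnc lie within 0.18, 0.10 and 0.17 log2 units over all arrays.

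Sod2, the mitochondrial superoxide dismutase, was lower in the arrays with COX7a RNAi. It read 12.24 and 12.23 in GFP, 12.03 and 12.06 in COX7a RNAi, 12.11 and 12.19 in Delta, 12.06 and 12.05 in Delta with COX7a RNAi, and 12.11 and 12.21 in Notch intra. The 4 COX7a RNAi arrays were the 4 lowest, and the 2 GFP arrays the 2 highest, with no overlap between these groups. Such separation was common. In COX7a RNAi against GFP 47.5% of all tested genes and 3 of 7 members did not overlap. For Delta with COX7a RNAi against GFP these were 53.6% and 4 of 7. The share for all 4 knockdown arrays together was not counted. These shares bear on the array orders given for other genes too. Sod2 fell by 0.18 ± 0.05 in Delta with COX7a RNAi against GFP, to 0.882 of the control level (95% interval 0.821 to 0.948, limma adjusted p = 0.0486). In COX7a RNAi against GFP the difference was -0.19 ± 0.05 and missed the threshold (adjusted p = 0.0611), as did the -0.10 ± 0.05 of COX7a RNAi in the Delta background (adjusted p = 0.313). The call in Delta with COX7a RNAi was lost under 14 of 20 alternatives (adjusted p up to 0.214), 8 of them the removal of 1 array. Delta and Notch intra alone differed from GFP by -0.08 ± 0.05 (adjusted p = 0.461) and -0.07 ± 0.05 (adjusted p = 0.327).

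Catalase was not called in any comparison. It read 10.63 and 10.62 in GFP, 10.48 and 10.65 in COX7a RNAi, 10.53 and 10.63 in Delta, 10.62 and 10.47 in Delta with COX7a RNAi, and 10.64 and 10.58 in Notch intra. In the order of the genotype means, from Delta with COX7a RNAi at the bottom to GFP at the top, every neighbour overlapped with the next. The intervals of the 4 differences from GFP ran from -0.25 to 0.15 log2 units, and the lowest adjusted p over all comparisons was 0.567.

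Trx2, the main cytosolic thioredoxin, varied least of the 7 genes over the 10 arrays, between 12.96 and 13.07. The arrays read 13.04 and 13.05 in GFP, 13.00 and 13.05 in COX7a RNAi, 13.02 and 13.04 in Delta, 13.07 and 13.03 in Delta with COX7a RNAi, and 12.96 and 13.02 in Notch intra. Only the Notch intra arrays lay wholly under the GFP arrays, by -0.05 ± 0.04 (adjusted p = 0.368). The intervals of the differences from GFP ran from -0.14 to 0.08, so that a change of more than 0.14 log2 units in either direction lay outside all 4 of them.

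Gclc, the catalytic subunit of glutamate-cysteine ligase, was higher in the arrays with COX7a RNAi than in GFP and Delta. It read 8.82 and 8.85 in GFP, 9.27 and 9.39 in COX7a RNAi, 8.85 and 8.89 in Delta, 9.50 and 9.16 in Delta with COX7a RNAi, and 9.18 and 9.01 in Notch intra. The lowest array with COX7a RNAi lay above all GFP and Delta arrays, and the 2 arrays of Delta with COX7a RNAi spanned those of COX7a RNAi. In COX7a RNAi against GFP, Gclc was 0.50 ± 0.11 log2 units or 1.41-fold higher (95% interval 1.19 to 1.68, limma adjusted p = 0.0423). In Delta with COX7a RNAi against GFP it was again 1.41-fold higher (1.19 to 1.68, adjusted p = 0.0301). Both comparisons share the GFP arrays. COX7a RNAi in the Delta background shares no array with COX7a RNAi against GFP. There Gclc was 0.46 ± 0.11 higher, or 1.37-fold (1.16 to 1.63), which missed the threshold (adjusted p = 0.063).

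Delta by itself left Gclc near the control: the difference from GFP was 0.04 ± 0.11 (adjusted p = 0.922) and, in the COX7a RNAi background, 0.00 ± 0.11 (adjusted p = 0.999). The intervals of these differences, -0.21 to 0.29 and -0.25 to 0.25, do not reach the 0.50 seen with COX7a RNAi. That estimate has its own interval of 0.25 to 0.74, which overlaps them. Whether the Delta and COX7a RNAi effects differ was not tested. In Notch intra both arrays lay above those of GFP and Delta and below those of COX7a RNAi, and replicate 1 overlapped with Delta with COX7a RNAi. Every array without UAS-GFP thus read higher in Gclc than every array with it. The difference of 0.26 ± 0.11 from GFP did not pass (adjusted p = 0.16). In the order of the genotype means (GFP, Delta, Notch intra, COX7a RNAi, Delta with COX7a RNAi), the last 2 overlapped and the neighbours below them did not, although GFP and Delta differed by less than the standard error.

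The 2 arrays of Delta with COX7a RNAi were 0.34 log2 units apart in Gclc, the widest gap between replicates of any genotype for this gene. Without replicate 1 of that genotype the difference from GFP was 0.33 and was no longer called. The call in COX7a RNAi against GFP was lost under 10 of 20 alternatives, with differences of 0.44 to 0.56 and adjusted p up to 0.229. These alternatives were the replicate block, eBayes without an intensity trend and the removal of either array of GFP, COX7a RNAi, Delta or Notch intra. The call in Delta with COX7a RNAi against GFP was lost under 6 alternatives, namely a fit on the compared groups alone and the removal of either GFP array, either Delta array or replicate 1 of Delta with COX7a RNAi (adjusted p up to 0.153). In the Delta background the difference passed under 3 alternatives, 1 of them the removal of replicate 2 of Delta with COX7a RNAi (0.63, adjusted p = 0.0127). Without replicate 1 of that genotype the difference was 0.29 (adjusted p = 0.157).

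Because the knockdown was made in both backgrounds, its effect averaged over them was also computed, a comparison added after these values had been seen and using 4 arrays against 4. It called 8.03% of all tested genes and 2 of the 7 members. Gclc was 0.48 ± 0.08 log2 units higher, or 1.39-fold (95% interval 1.23 to 1.57, limma adjusted p = 0.00761), with all 4 knockdown arrays above the 4 GFP and Delta arrays. This call held under all 20 alternatives, with differences of 0.39 to 0.56 and a highest adjusted p of 0.0357. Sod2 fell by 0.14 ± 0.03, to 0.906 of the level without the hairpin (0.861 to 0.953, adjusted p = 0.0308). That call was lost under 8 of 20 alternatives, 7 of them the removal of 1 array and the other eBayes without a trend, with adjusted p up to 0.112. The other 5 members had averaged differences between -0.05 and 0.02. The interaction of Delta and COX7a RNAi, which asks whether the knockdown acted differently in the Delta background, called 0.575% of all genes and no member, and at an unadjusted p under 0.05 it gave 10.5% of all genes and 0 members. It was -0.04 ± 0.15 for Gclc (adjusted p = 0.972) with an interval of -0.39 to 0.31, too wide to show that both backgrounds responded alike.

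**Figure D2:**
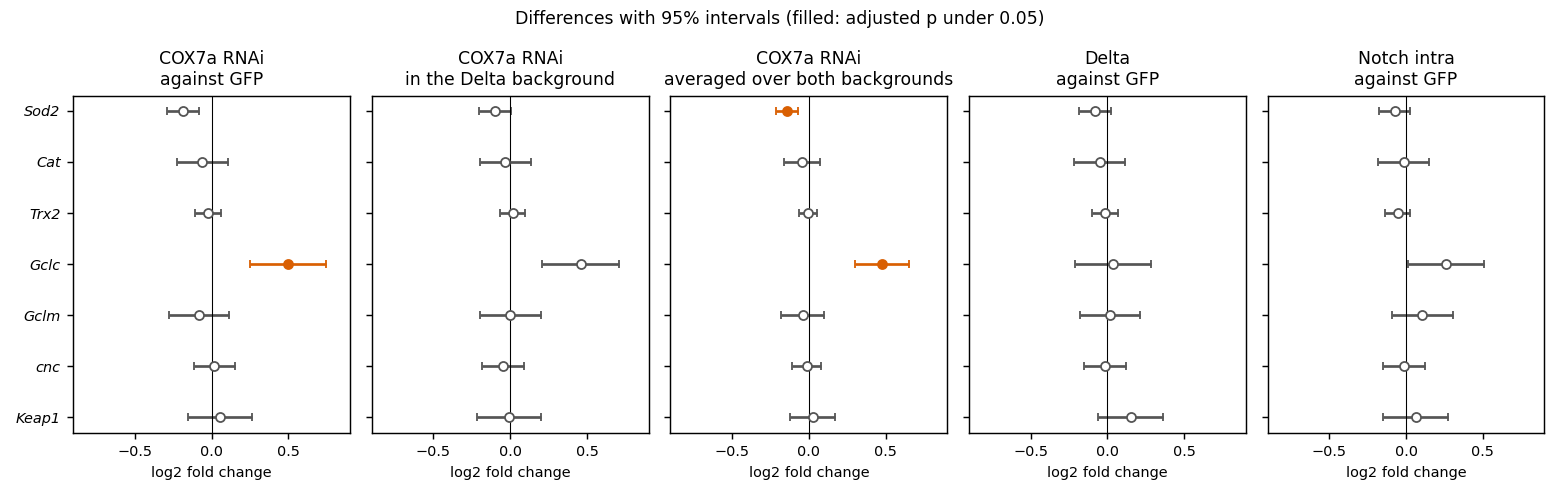
Log2 fold change (horizontal axis) of the 7 genes in 5 comparisons, with 95% intervals from the limma fit; filled points passed an adjusted p under 0.05. Gclc is called in COX7a RNAi against GFP (0.50) and in the average over both backgrounds (0.48), Sod2 in the average (-0.14), and no gene with Delta or Notch intra alone.

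**Figure D3:**
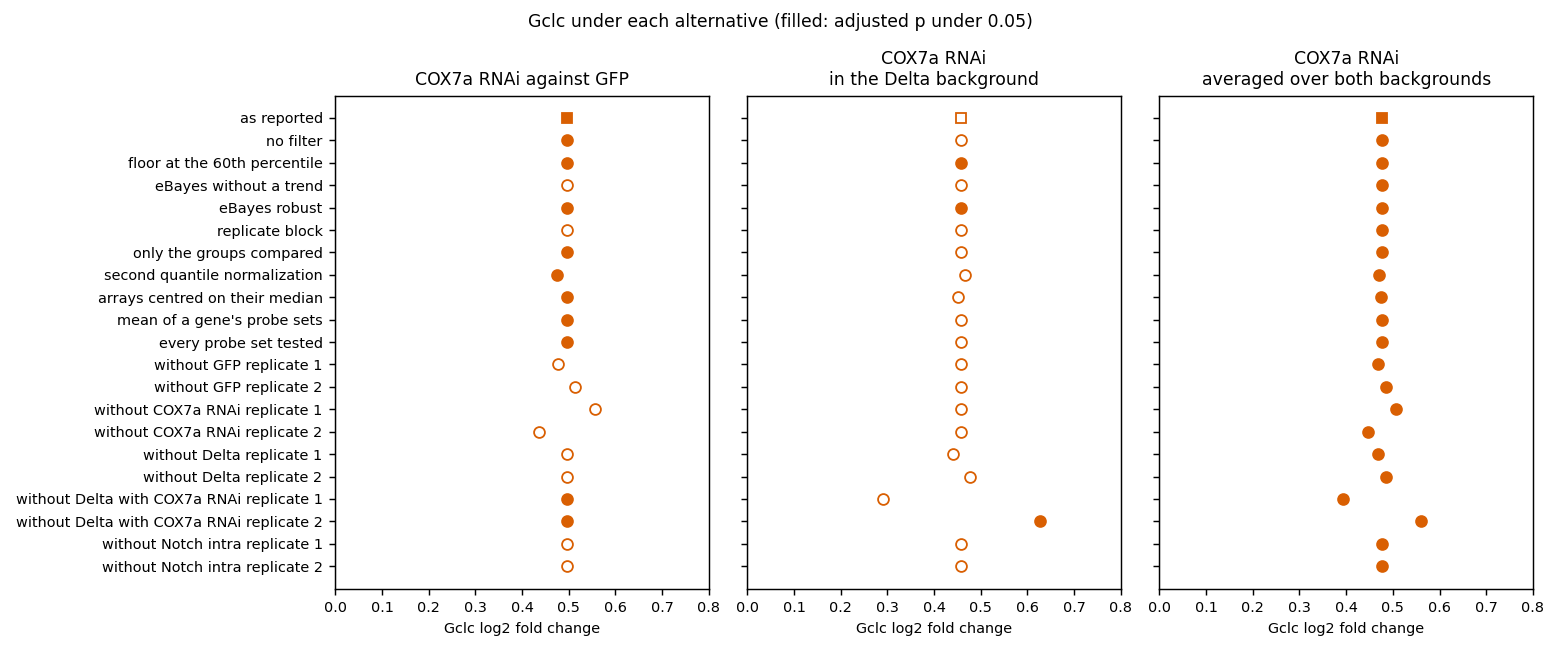
Log2 fold change of Gclc (horizontal axis) as reported (square) and under 20 alternative settings (circles) in 3 comparisons; filled symbols had an adjusted p under 0.05. The values stay between 0.44 and 0.56 against GFP and between 0.39 and 0.56 in the average, which is filled throughout, while the Delta background moves most when an array of Delta with COX7a RNAi is left out.

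Markers of the disc and of other tissues also differed between genotypes. Of the 7 eye-antenna markers, 0 were called in COX7a RNAi against GFP and 3 were lower in Delta with COX7a RNAi against GFP. Delta against GFP and the average each had 1 lower, and Notch intra against GFP 3 higher and 2 lower. The disc sum of linear levels was 20858 to 21078 in GFP and 19982 to 20817 in COX7a RNAi. In Delta it was 18667 to 18950 and in Delta with COX7a RNAi 18079 to 18157. Of 4 tracheal markers with a probe set (5 listed: serp, verm, Gasp, btl and trh), 2 were called lower in COX7a RNAi against GFP, 3 in Delta with COX7a RNAi against GFP and 3 in the average. Their summed linear level was 16011 to 16642 in GFP, 14188 to 15295 in Delta, 12446 to 13091 in COX7a RNAi and 12291 to 13587 in Delta with COX7a RNAi. The tracheal gene btl was above the floor on 6 of 10 arrays and the others on all. Of 4 glial markers, 0 were called in COX7a RNAi against GFP. In Delta with COX7a RNAi against GFP, in the Delta background and in the average, 1 was called lower. Against GFP their median was -0.45 in COX7a RNAi, -0.34 in Delta and -0.33 in Delta with COX7a RNAi. It was -0.06 in the Delta background and -0.26 in the average. The glial sum was 3632 to 4171 in GFP, 3677 to 3773 in Delta, 3377 to 3399 in COX7a RNAi and 2979 to 3363 in Delta with COX7a RNAi. Of 6 muscle markers with a probe set (8 listed), none was called with COX7a RNAi. Their median was -0.34 in COX7a RNAi and -0.18 in Delta with COX7a RNAi, both against GFP. It was -0.34 in the Delta background and -0.32 in the average. The muscle sum was 3034 to 3738 in GFP and 2346 to 3069 in COX7a RNAi. In Delta it was 2764 to 5066 and in Delta with COX7a RNAi 2460 to 3222. The part of disc composition, trachea, glia, muscle and corpora cardiaca in the Gclc and Sod2 results was not tested. In Notch intra the tracheal sum was 7003 to 7788 and 2 of 4 markers were called lower against GFP. Akh, the hormone gene of the corpora cardiaca, had a linear level of 259 to 404 in COX7a RNAi and 492 to 926 in Notch intra. Akh was at 43.9 to 47.0 in Delta with COX7a RNAi and at 45.8 to 55.3 in GFP. Fat body markers, 3 of 4 above the floor and apolpp above it on 0 arrays, had a summed level of 97.5 to 117 over all arrays and none was called in any comparison.

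Gclm, the modifier subunit of the same enzyme, was not called in any comparison. It read 6.87 and 6.71 in GFP, 6.71 and 6.71 in COX7a RNAi, 6.82 and 6.79 in Delta, 6.86 and 6.76 in Delta with COX7a RNAi, and 6.94 and 6.85 in Notch intra. All neighbours in the order of means overlapped, from COX7a RNAi at the bottom to Notch intra at the top. The differences from GFP were -0.08 ± 0.09 with COX7a RNAi and 0.02 ± 0.09 in Delta with COX7a RNAi, and averaged over both backgrounds the knockdown gave -0.04 ± 0.06 with an interval of -0.18 to 0.10 (adjusted p = 0.772). That interval does not meet the Gclc interval of 0.30 to 0.65, although the difference between the 2 genes was not tested. Over the 10 arrays the correlation of Gclc with Gclm was -0.09, and with Sod2 it was -0.80; with Cat, Trx2, cnc and Keap1 it lay between -0.06 and 0.02. These describe arrays that share 5 genotypes.

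Neither cnc nor Keap1 was called in any comparison. The annotated cnc probe set above the floor read 11.33 and 11.39 in GFP, 11.35 and 11.41 in COX7a RNAi, 11.27 and 11.42 in Delta, 11.34 and 11.25 in Delta with COX7a RNAi, and 11.32 and 11.37 in Notch intra. All neighbours in the order of means overlapped, and the intervals of the differences from GFP ran from -0.20 to 0.15. A second cnc probe set stayed between 2.80 and 3.08 on all arrays, under the floor, and was not tested. The annotation names only the gene, so the CncC form cannot be told apart from the shorter cnc forms. Keap1 read 7.65 and 7.64 in GFP, 7.70 and 7.70 in COX7a RNAi, 7.83 and 7.76 in Delta, 7.66 and 7.92 in Delta with COX7a RNAi, and 7.74 and 7.67 in Notch intra. Both GFP arrays were the lowest of the 10, and the 2 arrays of Delta with COX7a RNAi spanned those of all other genotypes but GFP. The difference of Delta from GFP was 0.15 ± 0.09 (adjusted p = 0.504). Transcript levels do not report on the amount or place of the CncC protein, which Keap1 controls.

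The wider pathway was read from 9 lists with 60 entries, of which 47 had a probe set and 42 were tested. The lists were chosen with earlier results of these data known, and the average was added after the values were seen. Shares of called genes below therefore describe the lists and were not tested as an enrichment. With COX7a RNAi against GFP, 4 of the 42 were called higher and 0 lower (9.52%, against 4.53% of all genes), and their median change was 0.01. In Delta with COX7a RNAi against GFP 6 were called higher and 1 lower (16.7%, against 7.56%). In the Delta background 3 were called higher and 0 lower (7.14%, against 3.75%). Averaged over both backgrounds 8 of 42 were called higher and 0 lower (19.0%, against 8.03%), with a median of 0.04 over the 42 and -0.01 over all genes. The 8 were ref(2)P, CG9393, dj-1beta, Men-b, Men, GstD1, SelR and MsrA, which belong to 6 of the 9 lists.

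Of these 8, 4 were called in COX7a RNAi against GFP and, averaged over both backgrounds, under all 20 alternatives. The first is ref(2)P, the fly p62, a selective autophagy adaptor and 1 of the 4 tested genes in the list of other Nrf2 pathway regulators. It read 9.61 and 9.52 in GFP, 9.95 and 10.10 in COX7a RNAi, 9.57 and 9.49 in Delta, 10.13 and 9.84 in Delta with COX7a RNAi, and 9.70 and 9.65 in Notch intra. All 4 knockdown arrays were above the other 6. It was 0.46 ± 0.09 higher in COX7a RNAi (adjusted p = 0.0337), 0.46 ± 0.09 higher in the Delta background (adjusted p = 0.0393) and 0.42 ± 0.09 higher in Delta with COX7a RNAi against GFP, which was 0.28 without replicate 1 of that genotype and then not called. These 3 calls were each lost under 9 of 20 alternatives, 7 of them single arrays.

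dj-1beta, a homologue of the Parkinson's disease protein DJ-1, which senses oxidation, read 11.15 and 11.01 in GFP, 11.54 and 11.40 in COX7a RNAi, 11.08 and 11.13 in Delta, 11.32 and 11.36 in Delta with COX7a RNAi, and 11.00 and 10.99 in Notch intra. Again the knockdown arrays were above all others. The rise was 0.39 ± 0.06 in COX7a RNAi against GFP (adjusted p = 0.0101) and 0.32 ± 0.04 in the average (adjusted p = 0.00385). In Delta with COX7a RNAi against GFP it was 0.26, a call lost under 10 of 20 alternatives. In the Delta background dj-1beta was not called. CG9393, which entered the glutathione and glutaredoxin list as an alias and has no other name in the gene table used, rose by 0.28 ± 0.05 with COX7a RNAi (adjusted p = 0.0166) and by 0.23 ± 0.05 in the Delta background (adjusted p = 0.0438, lost under 13 of 20 alternatives). Men-b, a malic enzyme, a source of NADPH for both thioredoxin and glutathione reduction, read 10.19 on both GFP arrays, 10.45 and 10.46 in COX7a RNAi, 10.36 and 10.37 in Delta, 10.46 and 10.44 in Delta with COX7a RNAi, and 10.25 and 10.23 in Notch intra. It rose by 0.26 ± 0.04 with COX7a RNAi (adjusted p = 0.00632) and was not called in the Delta background.

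Less stable calls in the average came from the genes that repair oxidised methionine and from a glutathione transferase. MsrA and SelR, methionine sulfoxide reductases of the opposite stereoisomers, were 0.51 ± 0.11 (adjusted p = 0.0255) and 0.37 ± 0.07 higher (adjusted p = 0.0187), calls lost under 4 and 5 of 20 alternatives. A second SelR probe set gave 0.03 ± 0.07, and as the mean of both SelR was 0.20 and not called. Men, the other malic enzyme of the list, was 0.77 ± 0.19 higher (adjusted p = 0.0401, lost under 13 alternatives). GstD1, a glutathione transferase widely used as a reporter of CncC activity, read 13.21 and 13.20 in GFP, 13.36 and 13.43 in COX7a RNAi, 13.26 and 13.36 in Delta, 13.60 and 13.44 in Delta with COX7a RNAi, and 13.50 and 13.53 in Notch intra. Its averaged rise was 0.20 ± 0.04 (adjusted p = 0.0204, lost under 5 alternatives), and in Delta with COX7a RNAi against GFP it was 0.31 ± 0.06 (adjusted p = 0.015). Of the 3 tested CncC targets of the list, Jheh2, a juvenile hormone epoxide hydrolase, fell by 0.35 ± 0.09 in Delta with COX7a RNAi against GFP (adjusted p = 0.0461), which was lost under 14 alternatives and was -0.21 at its smallest, without replicate 2 of that genotype. Cyp6a8, the third, was not called.

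**Figure D4:**
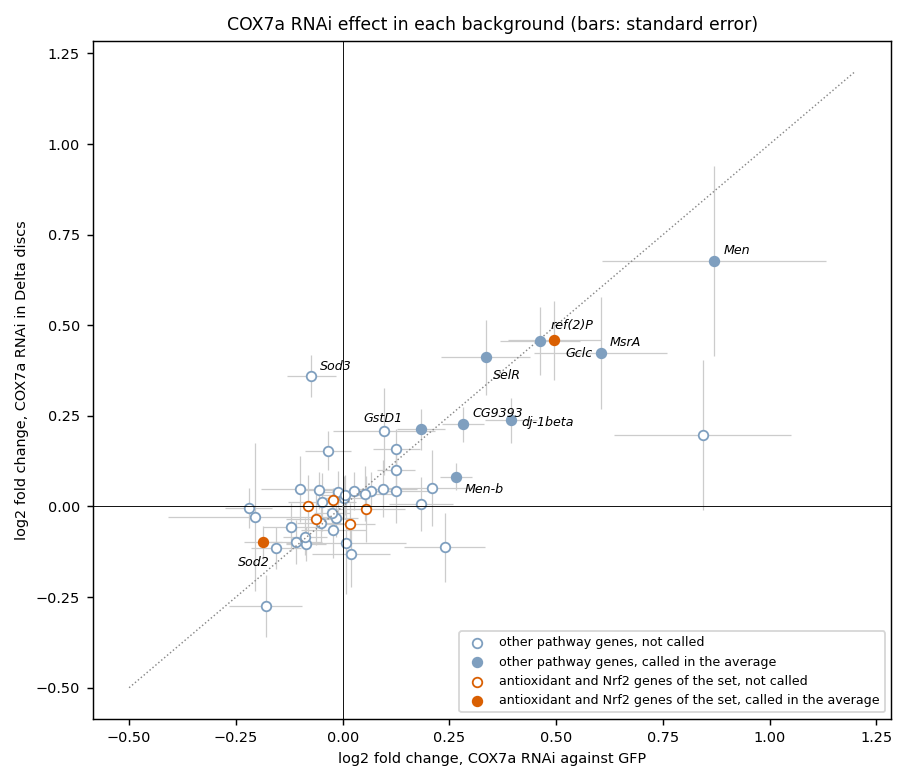
Log2 fold change with COX7a RNAi against GFP (horizontal axis) and in Delta discs (vertical axis) for the 7 antioxidant and Nrf2 genes (orange) and the 42 other pathway genes (blue), with standard errors as bars; filled points were called in the average over both backgrounds and the dotted line marks equal change. Gclc (0.50 and 0.46) lies beside ref(2)P (0.46 and 0.46), while Gclm, Cat, Trx2, cnc and Keap1 lie near 0 on both axes.

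Both Sod3 and Men were lower on the Notch intra arrays than on all other arrays. Notch intra against GFP called 3 of the 42 higher and 5 lower (19.0%, against 13.1% of all genes), Delta against GFP 0 higher and 1 lower (2.38%, equal to the 2.38% of all genes), and Notch intra against Delta 2 higher and 2 lower (9.52%, against 9.55%). No pathway gene was called for Delta in the COX7a RNAi background or for the interaction (limma). Sod3, the extracellular superoxide dismutase, read 11.93 and 11.91 in GFP, 11.76 and 11.94 in COX7a RNAi, 11.41 and 11.35 in Delta, 11.73 and 11.75 in Delta with COX7a RNAi, and 11.15 and 11.12 in Notch intra. It fell by 0.54 ± 0.06 in Delta (adjusted p = 0.00197) and by 0.79 ± 0.06 in Notch intra (adjusted p = 7.08e-05), and in the Delta background COX7a RNAi gave 0.36 ± 0.06 higher Sod3 (adjusted p = 0.0124, lost under 4 alternatives). A second Sod3 probe set gave -0.81 ± 0.07 in Notch intra, but -0.14 ± 0.07 in Delta (adjusted p = 0.373) and 0.08 ± 0.07 for COX7a RNAi in the Delta background (adjusted p = 0.635), so only the Notch intra change was found with both.

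In Notch intra the NADPH list had 3 of 5 tested genes lower: Men by 1.31 ± 0.26 (adjusted p = 0.0133), Idh, the NADP-dependent isocitrate dehydrogenase, by 0.21 ± 0.05 (adjusted p = 0.0298), and Nadk1a, an NAD kinase, by 0.23 ± 0.06 (adjusted p = 0.0326). These calls were lost under 3, 5 and 6 of 20 alternatives. Over all 8702 tested genes 13.1% were called in Notch intra against GFP, and 619 genes were called lower. Trxr1, the thioredoxin reductase that recharges Trx2, fell by 0.21 ± 0.05 (adjusted p = 0.0427, lost under 9 alternatives). The peroxiredoxin gene Prx6c was 0.76 ± 0.21 higher (adjusted p = 0.0462, lost under 12 of the 19 alternatives that tested it), but its GFP mean of 4.59 was under the floor, with 1 of 2 GFP arrays above it (4.72 and 4.46), so the size of this difference is uncertain. A difference of this size was not particular to Notch intra. In COX7a RNAi, where Prx6c read 5.16 and 5.71, it was 0.84 ± 0.21 above GFP and not called (limma adjusted p = 0.0653). In Delta with COX7a RNAi it read 4.63 and 4.66. With Notch intra against GFP, GstD1 rose by 0.31 ± 0.06 (adjusted p = 0.009, lost under 3), and foxo, a stress-responsive transcription factor, by 0.51 ± 0.08 (adjusted p = 0.00399), a call held under all 20 alternatives. Glial and muscle markers were also lower in Notch intra against GFP, 2 of 4 and 3 of 6 tested. Their median changes were -1.22 for glia and -1.19 for muscle. Summed linear levels were 2956 to 3082 against 3632 to 4171 for glia and 1271 to 1314 against 3034 to 3738 for muscle. A linear sum weighs markers with high values most, among the glial ones nrv2 (11.13 to 11.54 log2 units over all arrays). The part of glia and muscle in these Notch intra results was not tested. None of the 7 members was called there.

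The genes whose values followed Gclc most closely over the 10 arrays were Dgp-1 (Pearson's r = 0.973), Adss, adenylosuccinate synthase of purine synthesis (0.961), and Hph, the prolyl hydroxylase that senses oxygen (0.957). Dgp-1 read 10.43 and 10.47 in GFP, 11.58 and 11.87 in COX7a RNAi, 10.39 and 10.60 in Delta, 11.77 and 11.23 in Delta with COX7a RNAi, and 10.98 and 10.89 in Notch intra. As for Gclc, replicate 1 of Delta with COX7a RNAi was above replicate 2 and the Notch intra arrays lay above those of GFP and Delta. The Notch intra arrays of Dgp-1 lay below all 4 knockdown arrays, while for Gclc replicate 1 did not. With COX7a RNAi against GFP, Dgp-1 was 1.27 ± 0.17 higher (adjusted p = 0.00461), Hph 0.34 ± 0.07 (adjusted p = 0.0372) and Adss 0.23 ± 0.05 (adjusted p = 0.033). All 3 were called higher in the Delta background as well. Sod2 was followed most closely by CG31373 (0.924), CG5126 (0.907) and CG7523 (0.903), which fell by 0.56 ± 0.09, 0.37 ± 0.05 and 0.33 ± 0.07 with COX7a RNAi against GFP (adjusted p = 0.0101, 0.0075 and 0.0307). These genes were picked for their likeness over the same arrays, so their changes describe that choice.

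**Figure D5:**
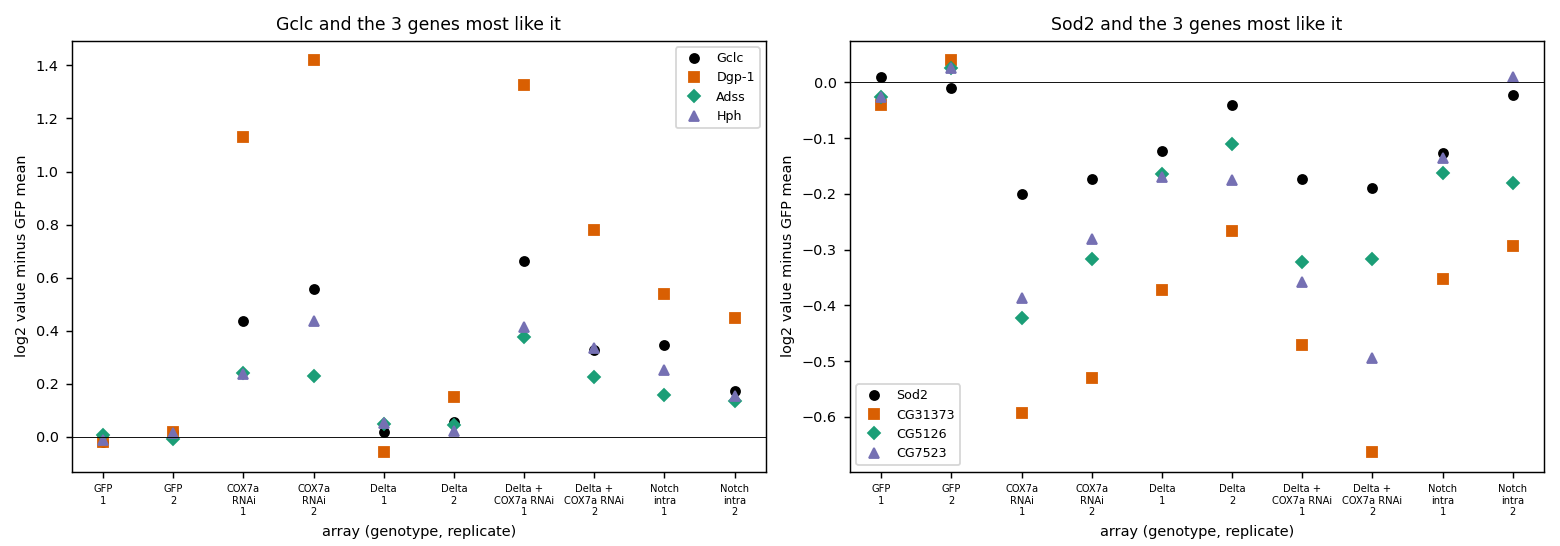
Log2 value minus the mean of the 2 GFP arrays (vertical axis) on each of the 10 arrays (horizontal axis, genotype and replicate) for Gclc and Sod2 (black) and the 3 genes with the highest correlation to each. In the left panel Dgp-1 moves further than Gclc (1.27 against 0.50 with COX7a RNAi), and in the right panel Sod2 lies closest to 0 of the 4 genes on the 4 arrays with COX7a RNAi.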

How the data were processed

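Per the labels' protocols, discs were lysed in TRIzol, and a 3′ in vitro transcription kit amplified 50 ng of total RNA for Affymetrix arrays. Deposited values are log2 expression values, 1 for each probe set on each array. The software, per the submitters' processing notes, comprised Transcriptome Analysis Console 3.0.0.466, RMA and Affymetrix Expression Console; their roles are not given. RMA equalises the distributions of arrays and would hide a shift common to most genes. Column medians ran from 5.15 to 5.21. Detection calls, scan dates and a genome build were not given in the sources used here, so batches were not tested and no coordinates are printed. The number of arrays, 2 per genotype, limits the precision.

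Of 18952 probe sets, 183 were controls and not used. The platform annotation can be old; by it, 13647 had 1 gene symbol, 402 several and 4720 none. The single-gene probe sets covered 11982 genes, and the one of highest mean stood for its gene. Testing required 2 or more arrays over a floor of 4.66, the 40th percentile of all values, and 8702 genes met this. The linear model (limma 3.58.1, R 4.3.3) had a mean for each genotype over 10 arrays, 5 residual degrees of freedom, eBayes with an intensity trend, two-sided, with Benjamini-Hochberg adjustment over all tested genes. It was also run on simulated data with independent noise and no batch or tissue effect, so that run does not bear on such effects. Its outcome is not given here.

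The members, the pathway and marker lists and the rule for named genes were chosen with earlier results of these data known. The rule names all members, the called genes of largest change, at most 3, per pathway list and comparison, the 3 genes most correlated with each called member, and COX7A and Delta as checks. The average of COX7a RNAi over both backgrounds was added after the values were seen. The labels call the replicates biological and do not say that a replicate number is shared between genotypes, so no block was used in the reported fit. The alternatives were no filter, a 60th percentile floor, robust eBayes and eBayes with no trend, a replicate block, only the compared groups in the fit, a second quantile normalization, centring of arrays on their median, the mean of a gene's probe sets, every probe set tested, and each of 10 arrays left out in turn.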

Additional observations from a re-analysis of the deposited data

How the results depend on the processing

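In the 9 comparisons, no member changed sign where it was called. With COX7a RNAi against GFP, 1 member was called; 0 were under eBayes without a trend and with the replicate block, 2 under a second quantile normalization and under centring on the median (Gclc and Sod2), and 0 to 1 with 1 array left out. In Delta with COX7a RNAi against GFP the 2 calls became 1 without a filter, without a trend, with robust eBayes, with centring and with every probe set tested, 0 in a fit on the compared groups alone, and 0 to 2 with 1 array left out. In the Delta background the count of 0 became 1 (Gclc) with the floor at the 60th percentile and with robust eBayes, and 0 to 1 with 1 array left out. In the average over both backgrounds 2 became 1 without a trend and 1 to 2 with 1 array left out. Of the 63 pairs of member and comparison 58 were not called, and 2 of these were under an alternative. A fit on the compared groups alone called 187 genes in place of 394 for COX7a RNAi, 366 in place of 207 for Delta, 328 in place of 658 for Delta with COX7a RNAi, 118 in place of 326 for COX7a RNAi in the Delta background and 10 in place of 78 for Delta in the COX7a RNAi background. With 1 array left out the counts over all genes were 127 to 443, 74 to 245, 206 to 772, 545 to 1250 (Notch intra against GFP, 1144 with all arrays), 104 to 371, 41 to 105, 311 to 979 (Notch intra against Delta, 831), 16 to 42 (interaction, 50) and 353 to 718 (average, 699), each lone array being assumed to vary like the other genotypes. Called genes of Notch intra against Delta were 34.1% higher, 44.5% after a second quantile normalization and 22.4% after centring. Deviations of same-numbered arrays correlated at r = -0.22 to 0.38 over 10 pairs of genotypes. This range does not settle whether replicate numbers pair some of the samples. The cause of these shifts was not tested.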
